A study of Homo sapiens with 2 samples.

Results

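The 10 rows described here are NOP56, the row of a small RNA that stands 6 places after it in the deposited table, and 8 further genes of the nucleolus whose proteins build or serve small nucleolar ribonucleoproteins (snoRNPs). They were matched by Ensembl gene ID, and 10 of the 57820 IDs of the table belong to them. In order they are NOP56 (ENSG00000101361), the small RNA row (ENSG00000226572), NOP58 (ENSG00000055044), FBL (ENSG00000105202), NHP2L1 (ENSG00000100138), DKC1 (ENSG00000130826), NHP2 (ENSG00000145912), NCL (ENSG00000115053), NPM1 (ENSG00000181163) and NOLC1 (ENSG00000166197). NOP56 and the small RNA row were selected on their measured counts, which were near-equal and differed between the libraries, so both features are given as a description. The others were selected by what their proteins do, with their counts in view. The measurements are ribosome-protected fragments of 27 to 29 nt in HEK293 cells, a line derived from human embryonic kidney. The only group had received DMSO, the vehicle, over 12 h, and each of its 2 libraries came from a batch of its own (replicate 1 from batch 1, replicate 2 from batch 2). Replicate 1 held 865838 counts and replicate 2 held 611266. Minocycline-treated cells and matched RNA-seq were not analysed here, so the values below are footprint levels and not translational efficiencies, and replicate and batch cannot be told apart. No label states that the libraries came from separate cultures, so the SD over 2 libraries may be partly technical.

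Small nucleolar RNAs guide chemical modification of ribosomal RNA in the nucleolus. Box C/D snoRNPs carry NOP56, NOP58, fibrillarin (FBL, the methyltransferase) and NHP2L1 (now SNU13, which binds the kink-turn of the RNA first) and methylate ribose. Box H/ACA snoRNPs carry dyskerin (DKC1, the pseudouridine synthase) with NHP2 and convert uridine to pseudouridine. Many snoRNAs of vertebrates are cut from introns of genes that encode proteins of ribosome synthesis, so 1 locus yields an mRNA and several small RNAs. A small RNA held in a particle can survive RNase digestion and enter a footprint library without being translated.

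The RefSeq gene table (assembly GRCh38.p14) held all 9 protein-coding members by symbol and listed snoRNA genes inside 4 of them. NOP56, on chromosome 20, encloses 6 small RNA genes there: MIR1292, SNORD110, SNORA51, SNORD86, SNORD56 and SNORD57. NOP58, on chromosome 2, encloses SNORD70, SNORD70B, SNORD11B and SNORD11. DKC1, on chromosome X, encloses SNORA36A, MIR664B and SNORA56, and NCL, on chromosome 2, encloses SNORA75, SNORD20 and SNORD82. The other 5 genes, FBL (chromosome 19), NHP2L1 (22), NHP2 (5), NPM1 (5) and NOLC1 (10), enclose no snoRNA or miRNA gene in that table. The count table pairs no ID with a name, so which of these small RNAs the row after NOP56 holds is not stated here. The deposited counts were made on hg19, so no coordinates of the other build are given.

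The mRNAs of many proteins of the translation machinery begin with a 5′ terminal oligopyrimidine tract, a C followed by further pyrimidines, through which growth signalling sets their ribosome loading. The starts of the members are shown because footprints were counted on these mRNAs. RefSeq windows (GRCh38.p14) were found for 6 of the 9 symbols, with 2 annotated starts for NPM1. Each line gives 15 bases before and 15 bases from the annotated start, 5′ to 3′ on the gene's strand, with the first 5 bases of the transcript in capitals.
NOP56 (chromosome 20, + strand): gagcgcgctagccgcATTGCgagccgaacc
FBL (chromosome 19, - strand): ccgcgcgcctgcgctCTTTTccacgtgcga
DKC1 (chromosome X, + strand): gggcagtgcgcgggtGGGTGggtcctagca
NHP2 (chromosome 5, - strand): cagctgatgacctggAAGTGatgcctaaag
NCL (chromosome 2, - strand): tcagtctttcgcctcAGTCTcgagctctcg
NPM1, upstream start (chromosome 5, + strand): ctccgagctctcttaGGGCGatgtccttgc
NPM1, downstream start (chromosome 5, + strand): cggggagcctgcgtcCTTTCcctggtgtga
All 5 capital bases were pyrimidines in 2 of these 7 windows, those of FBL and of the downstream NPM1 start, and in 5.17% of all 35116 windows of the table. The E-box CACGTG, the sequence bound by MYC, which reads alike on both strands, was sought in windows of 300 bases. It occurred in 1 of the 7 such windows of the 6 members, that of FBL, and in 7.26% of all such windows. These are matches of letters in annotated windows, and neither start use nor binding was measured here.

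NOP56 and the small RNA row held nearly the same counts in each library. NOP56 had 3343.5 counts in replicate 1 and 993.5 in replicate 2. The small RNA row had 3180 and 879.5. In CPM (counts per 1000000 counts of the library), NOP56 stood at 3862 in replicate 1 and 1625 in replicate 2, a mean of 2743 ± 1581 (SD, n = 2), and the small RNA row stood at 3673 and 1439, a mean of 2556 ± 1579.6 (SD, n = 2). Both rows were high in replicate 1 and low in replicate 2. The counts of the small RNA row amounted to 95.1% of those of NOP56 in replicate 1 and 88.5% in replicate 2.

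The rows between them did not share this level. Of the 5 rows that lie between NOP56 and the small RNA row, 4 had a count above 0 and 1 was at 0 in both libraries. Together the 5 rows held 15.5 counts in replicate 1 and 16 in replicate 2. The highest of them, 2 places after NOP56, had 10 and 13 counts. A row at 0 may hold up to 3 counts by chance, which is 3.46 CPM at the depth of replicate 1 and 4.91 CPM at that of replicate 2.

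**Figure D1:**
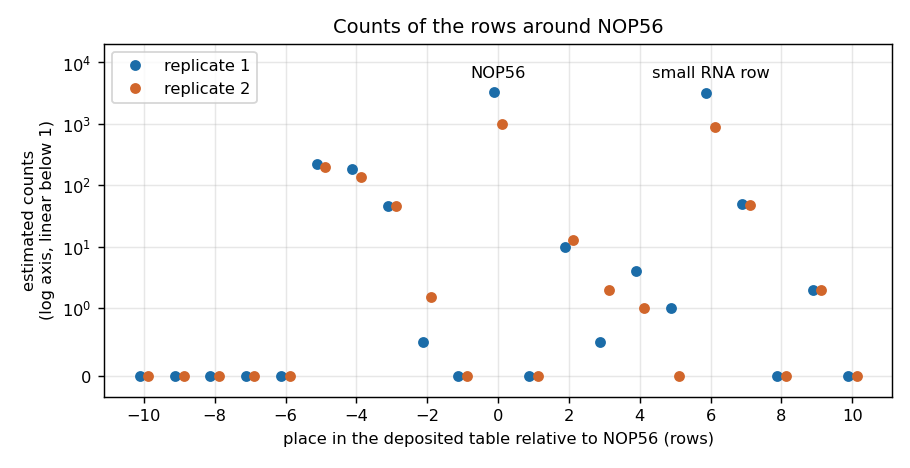
Estimated counts (vertical axis, logarithmic above 1 and linear below) of the rows within 10 places of NOP56 in the deposited table (horizontal axis), with 1 point per library. NOP56 and the row 6 places after it stand together at 3343.5 and 3180 counts in replicate 1 and at 993.5 and 879.5 in replicate 2, while each row between them holds 13 counts or fewer.

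Only these 2 of the 10 members had counts that were not whole numbers, here and below those more than 0.001 from one. NOP56 ended in 0.5 in both libraries, the small RNA row in replicate 2 only, and each of the other 8 members held whole counts in both libraries. Counts that end in 0.5 would follow if a fragment were divided over 2 rows, but the authors' counting rule is not given in the sources used here and this was not tested. With non-whole values in 485 of the 2241 IDs with at least 100 summed counts (21.6%), the feature was common in the table. Among the 4 host genes, NOP58, DKC1 and NCL had whole counts although snoRNA genes lie inside them. Parts of 0.5 can also add up to a whole count, so whole counts do not settle whether fragments were divided. The 3 rows after NCL held 8, 27 and 18 counts in replicate 1 and 5, 22 and 3 in replicate 2, against 1575 and 764 for NCL itself. What these 3 rows hold is not stated here.

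Subtracting the small RNA row from NOP56 left 163.5 counts in replicate 1 and 114 in replicate 2. This remainder would be the part of NOP56 outside the small RNA if each count of the small RNA row had an equal count in NOP56, which was not tested. The intervals given for it take it as a count of its own, so they hold only under that condition. Otherwise the counting error of both rows enters and the intervals would be wider. The remainder corresponded to 189 CPM in replicate 1 (95% exact Clopper-Pearson interval 162 to 221) and 186 CPM in replicate 2 (154 to 224), a mean of 188 ± 1.65 (SD, n = 2). The deposited level of NOP56 had differed 2.20-fold between the libraries after scaling by the trimmed mean of M-values (TMM). With the same scaling, the log2 ratio of the remainders, replicate 2 over replicate 1, was 0.087 (95% interval -0.27 to 0.44), an interval that included equality. The pair was chosen for near-equal counts that differed between the libraries, so nothing is read from the loss of this difference. The remainder was 4.89% of the NOP56 counts in replicate 1 and 11.5% in replicate 2.

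**Figure D2:**
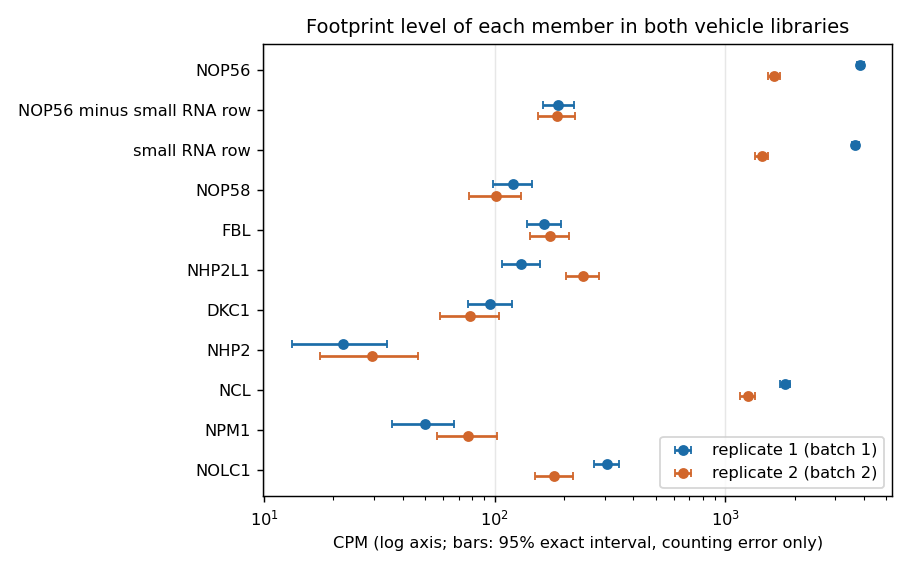
CPM of each member (horizontal logarithmic axis) in replicate 1 and replicate 2, with 95% exact intervals that cover counting error only, and the NOP56 counts left after the small RNA row was subtracted. NOP56 and the small RNA row lie far apart between the libraries, at 3862 against 1625 CPM and 3673 against 1439 CPM, and the remainder of NOP56 lies at 189 and 186 CPM. Intervals of the remainder take it as a count of its own.

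The ratio of replicate 2 over replicate 1 was then set beside that of other IDs. The log2 ratio after TMM scaling was -1.14 for NOP56 (95% conditional exact binomial interval -1.24 to -1.04) and -1.24 for the small RNA row (-1.35 to -1.13). Both intervals lay wholly beyond 2-fold towards replicate 1. The intervals cover counting error only and take fragments as independent, which amplified copies of a fragment are not. Of the 10 members, 8 reached the 100 summed counts needed for this rule and 2 of the 8 were past it, both higher in replicate 1. Over all 2241 IDs with that many counts, 0.803% were past the rule in either direction and 0.312% on the side of replicate 1. The pair was chosen for this difference, so nothing is read from the share of members. The upper bound of NOP56 lay near the limit of -1: the nearest IDs past it on the same side ended at -1.02 and -1.02, and the nearest that missed it at -0.99 and -0.95. With the small RNA row subtracted, the log2 ratio of NOP56 was 0.087 (-0.27 to 0.44) with TMM and -0.022 (-0.38 to 0.33) by library size. Both intervals lay within 2-fold and included equality, but they take the remainder as a count of its own, as above.

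This pair was then set beside other neighbouring rows with near-equal counts. Among 1480 pairs of IDs with at least 100 summed counts and no more than 10 places apart, 68 pairs (4.59%) had counts within 15% of each other in both libraries, limits chosen after the NOP56 pair had been seen. In 27 of the 68 both IDs had a non-whole count in at least 1 library, and NOP56 with the small RNA row was the pair with the most counts among these. The summed counts of the NOP56 pair gave a log2 ratio of -1.19, the lowest of the 68. Over all 68 pairs the next lowest was -0.67 and the highest 0.60, with a median of 0.052. Among the 27 pairs the next lowest was -0.30 and the highest 0.58, with a median of 0.099, and 11 of the 27 were lower in replicate 2 and 16 higher. The NOP56 pair was chosen for near-equal counts and for its difference between the libraries, so nothing is read from its place among the pairs. Some IDs belong to several pairs, so the pairs are not independent of each other. These values describe 2 libraries and carry no test. The ID closest to NOP56 on log2(CPM + 1) in both libraries was the small RNA row itself, at a distance of 0.19, and the next 2 IDs lay at 0.61 and 0.71. The pair was selected for near-equal counts, so this closeness follows from the selection.

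The other members of the box C/D core did not share the ratio of the deposited NOP56 counts. NOP58, the paralogue that faces NOP56 in the particle, had 104 counts (120.1 CPM) in replicate 1 and 62 (101 CPM) in replicate 2, a mean of 111 ± 13.2 CPM (SD, n = 2). Its log2 ratio was -0.13 (-0.61 to 0.33). FBL had 142 counts (164 CPM) and 106 (173 CPM), a mean of 169 ± 6.65 CPM (SD, n = 2), with a log2 ratio of 0.19 (-0.19 to 0.56). For both genes the interval included equality and lay within 2-fold.

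NHP2L1 was the member furthest towards replicate 2. It had 113 counts (131 CPM) in replicate 1 and 148 (242 CPM) in replicate 2, a mean of 186 ± 78.9 CPM (SD, n = 2). The log2 ratio was 1.00 (0.64 to 1.37), so the higher level in replicate 2 was beyond counting error and its interval reached past 2-fold without lying wholly beyond it. Of the 2241 IDs, 2.32% had a higher ratio. The log2 ratio of NHP2L1 exceeded that of FBL by 0.81 (95% interval 0.30 to 1.32, counting error on the log scale) and that of NOP58 by 1.14 (0.56 to 1.71), whereas FBL and NOP58 differed by 0.32 (-0.26 to 0.91). NHP2L1 is the extreme of the members, and these intervals leave out any spread between the libraries beyond counting error. NHP2L1 also belongs to the U4 snRNP of the spliceosome, which the other core proteins do not. With a limit of 1.5-fold in place of 2-fold and TMM scaling, NHP2L1 was the only further member past the rule, giving 3 of 8. Of all 2241 IDs, 4.24% passed at that limit. By library size the interval of NHP2L1 was 0.53 to 1.26, which does not lie wholly beyond 1.5-fold. At 2-fold with TMM scaling, 2 of the 8 passed with 99% intervals, beside 0.491% of all IDs. With at least 20 summed counts 2 of the 10 passed, beside 1.22% of 6965 IDs.

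The box H/ACA members were counted less deeply. DKC1 had 83 counts (95.9 CPM) in replicate 1 and 48 (78.5 CPM) in replicate 2, a mean of 87.2 ± 12.3 CPM (SD, n = 2), and a log2 ratio of -0.18 (-0.72 to 0.35). NHP2 had 19 counts (21.9 CPM) and 18 (29.4 CPM), a mean of 25.7 ± 5.31 CPM (SD, n = 2), and a log2 ratio of 0.53 (-0.48 to 1.54). A difference between the libraries was not detectable for either gene at this depth, and the interval of NHP2 admits changes beyond 2-fold. The difference between the 2 ratios was 0.71 (-0.35 to 1.77).

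The ratios of the nucleolar proteins outside the core particles did not all go one way. NCL (nucleolin, which binds pre-rRNA) had 1575 counts (1819 CPM) in replicate 1 and 764 (1249.9 CPM) in replicate 2, a mean of 1534 ± 402 CPM (SD, n = 2). NOLC1 (Nopp140, which binds snoRNPs and moves between nucleolus and Cajal body) had 265 counts (306 CPM) and 111 (182 CPM), a mean of 244 ± 88.0 CPM (SD, n = 2). Both were lower in replicate 2, with log2 ratios of -0.43 (-0.56 to -0.31) for NCL and -0.64 (-0.98 to -0.32) for NOLC1. These 2 ratios differed by 0.21 (-0.13 to 0.55), an interval that included 0. Of the 2241 IDs, 19.6% had a lower ratio than NCL and 10.2% a lower ratio than NOLC1.

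NPM1 (nucleophosmin, an abundant chaperone of the outer nucleolus) went the other way. It had 43 counts (49.7 CPM) in replicate 1 and 47 (76.9 CPM) in replicate 2, a mean of 63.3 ± 19.3 CPM (SD, n = 2), and a log2 ratio of 0.74 (0.11 to 1.37). Its ratio exceeded that of NCL by 1.17 (0.56 to 1.78) and that of NOLC1 by 1.38 (0.71 to 2.06). RefSeq lists 50 numbered pseudogenes of NPM1, against 3 of NOP56, 2 of NCL, 2 of NHP2, 1 of FBL, 1 of NOLC1 and 0 of NOP58, NHP2L1 and DKC1. How the authors counted fragments that fit a gene and its pseudogenes is not given in the sources used here, so the counts of NPM1 are uncertain and the part of its pseudogenes in them was not tested.

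**Figure D3:**
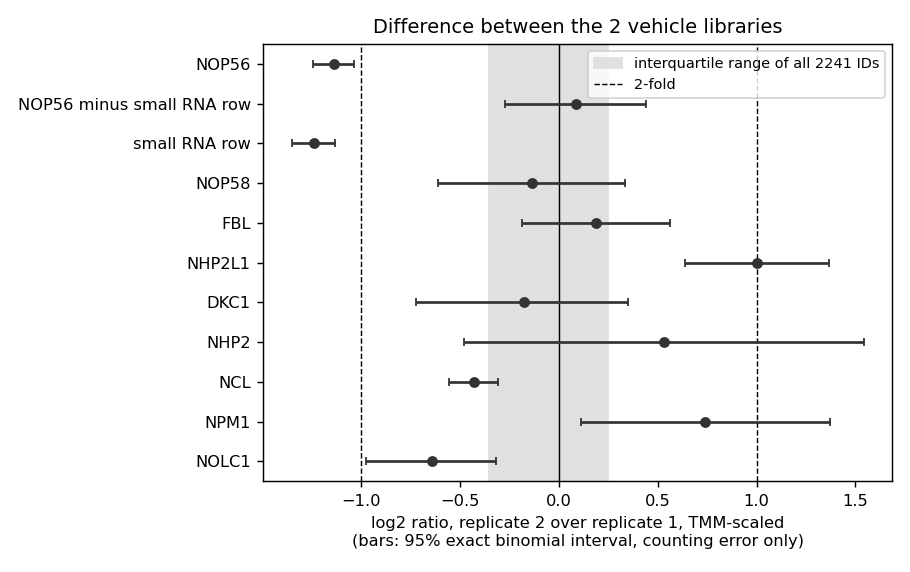
Log2 ratio of replicate 2 over replicate 1 after TMM scaling (horizontal axis) for each member and for NOP56 after subtraction, with 95% exact binomial intervals for counting error. The interval of NOP56 after subtraction takes the remainder as a count of its own. NOP56 and the small RNA row lie beyond the dashed 2-fold line at -1.14 and -1.24, NHP2L1 lies at 1.00, and the grey band is the interquartile range of all 2241 IDs, -0.35 to 0.25.

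As a list, the 8 protein-coding members other than NOP56 did not move one way. The median of their log2 ratios was 0.027, beside -0.073 over all 2241 IDs, with a range from -0.64 for NOLC1 to 1.00 for NHP2L1. Library-size scaling shifted every ratio by the same amount, to medians of -0.082 and -0.18. It left 4 of the 8 higher in replicate 1 and 4 higher in replicate 2, as with TMM. Of all 2241 IDs, 56.8% were higher in replicate 1 with TMM, so nothing is read from this split. Without NOLC1 the median was 0.19. None of the 8 was past the 2-fold rule, which 6 of them had the counts to enter. Among those 6, the intervals of 3 (NHP2L1, NCL and NOLC1) left out equality, against 37.9% of all 2241 IDs, of which 22.3% were higher in replicate 1 and 15.6% in replicate 2. Intervals of counting error were therefore too narrow for the spread between these libraries, and an interval that leaves out equality was common.

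The 9 protein-coding members together made up 0.657% of replicate 1 and 0.376% of replicate 2, a mean of 0.516% ± 0.199 (SD, n = 2). Without NOP56 the other 8 held 0.271% and 0.213%, a mean of 0.242% ± 0.0406 (SD, n = 2). With NOP56 entered as its remainder, the mean share of the 9 was 0.261%. Coding lengths were not used here, so levels of different members are not ranked against each other.

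**Figure D4:**
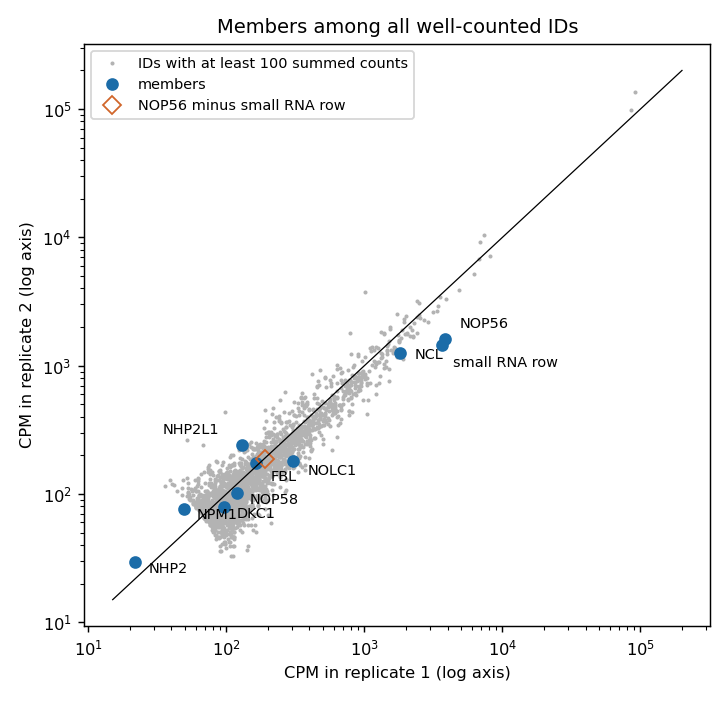
CPM in replicate 1 (horizontal) against CPM in replicate 2 (vertical), both on logarithmic axes, for the 2241 IDs with at least 100 summed counts in grey and the 10 members in blue, with the line of equality. NOP56 and the small RNA row lie below the line, NHP2L1 lies above it, and NOP56 after subtraction (open diamond, 189 and 186 CPM) lies on it.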

How the data were processed

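Per the labels' protocols, each library used HEK293 lysate (2 plates, 15 cm wide) prepared in cycloheximide, treated with RNase I and run through size-exclusion columns. Fragments of 20 to 38 nt were gel-purified, and ribosomal RNA was not depleted. The deposited table gives estimated counts of 27 to 29 nt fragments per Ensembl ID, unscaled, made by the authors on hg19 per the submitters' processing notes. For aligner, counting tool, annotation and strand setting: not given in the sources used here.

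CPM used the sum of all IDs. Ratios used values rounded to whole numbers and TMM scaling (edgeR 4.0.16, R 4.3.3; IDs with at least 20 summed counts), with conditional exact binomial intervals (Python 3.11.15, scipy 1.17.1, numpy 2.4.6, pandas 2.3.3). Differences of ratios used normal intervals of counting error. No p-value was computed, since 1 group holds no contrast. On simulated data over 2241 IDs, counting error only, the 2-fold rule recovered 99% of 4-fold and 100% of 8-fold changes with 0 false calls. Changes were planted only among the deeper-counted IDs, and none was close to 2-fold. Unchanged IDs had no spread beyond counting error, so the absence of false calls does not carry over to these libraries.

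Members, lists and alternatives were chosen with earlier results of these data known. Named were all members. Of the rows near a member and the IDs near NOP56 or the limit, values are given mostly without IDs. The 3 gene lists, the cell type markers and the 4 densities per codon were fixed by symbol and not run, because the table pairs no ID with a symbol and no coding length was used here. HEK293 identity was therefore not checked against markers.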

Additional observations from a re-analysis of the deposited data

How the results depend on the processing

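NOP56 and the small RNA row stayed beyond 2-fold under library-size and DESeq2 1.42.0 scaling, with the 2 highest IDs left out of TMM or of library size, and with deposited or rounded-down values. With the small RNA row subtracted, the log2 ratio of NOP56 was 0.087 with TMM (-0.27 to 0.44) and -0.022 by library size (-0.38 to 0.33). Its sign therefore depended on the scaling. With all 6 rows after NOP56 subtracted, chosen after the data were seen, it was 0.017 (-0.37 to 0.39). These intervals take what is left as a count of its own. The pair was chosen for near-equal counts that differed between the libraries, so nothing is read from the smaller ratio. Subtracting the small RNA row also took the count of members beyond 2-fold from 2 to 1 and the mean share of the protein-coding members to 0.261%. That count was 3 at 1.5-fold with TMM scaling, where NHP2L1 was added, although by library size its interval was not wholly beyond 1.5-fold. At 2-fold it was 2 with 99% intervals, at least 20 summed counts, library size or DESeq2 scaling. The median log2 ratio of the 8 other members was -0.082 by library size and 0.19 without NOLC1. For the 8 single members, 49 of 49 alternative values kept direction and side of the 2-fold rule. Leaving out a replicate gave shares of 0.376% to 0.657%, and 88.5% to 95.1% for the small RNA row over NOP56. Densities per codon and gene lists were not run. Depth limits NHP2 and NPM1, with 37 and 90 summed counts. No paired analysis was possible because the data hold 1 group.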

Other observations

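The rows around NOLC1 were looked at after the data were seen. Of 7 rows within 10 places of it with at least 20 summed counts, 5 were lower in replicate 2. Among the 2241 IDs with at least 100 summed counts 56.8% were, so nothing is read from 5 of 7. The median log2 ratio of the 7 rows was -1.14 (range -2.46 to 0.94, with 0.5 added to both counts). Their summed counts were 239 and 91, which gave a log2 ratio of -0.78 (-1.15 to -0.43, counting error only), beside -0.64 for NOLC1. Among 2826 windows of this kind in the table with at least 4 such rows, 7 (0.248%) had a median as low. These 7 include the window around NOLC1 itself, and windows of nearby IDs share rows. The share is therefore no measure of how rare such a window is. Around NOLC1 the median was -0.17 over 14 rows within 25 places, of which 7 were lower in replicate 2 and 7 higher. Over 24 rows within 50 places it was -0.38, with 13 lower and 11 higher. It was -0.46 over the 3 rows with at least 50 summed counts. What these rows encode is not stated here, and the part of the neighbourhood in the ratio of NOLC1 was not tested. Around NCL, which had a log2 ratio of -0.43, the 3 such rows had a median of 0.18.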
